A study of Homo sapiens with 30 samples.

Results

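The transcriptional response to bone morphogenetic protein 4 (BMP4) was examined 3 h after its addition, on 5 two-colour arrays, out of 30 in all, 1 for each of 5 established lines of human breast cancer. They were, in the order in which values of single lines are given throughout, HCC1419 and HCC1954, then MDA-MB-361, then SK-BR-3 and ZR-75-30. The arrays were selected by their labelled time point. Each was set against the 1 h array of its own line, to ask which genes were first higher at 3 h and which had already decayed. In all 10 samples, Cy5 marked the RNA of cells given recombinant human BMP4, and Cy3 that of cells given vehicle for the same time. Triplicate treatments were pooled before extraction, so an array holds 1 pooled RNA per channel. The 5 replicates of a time point are therefore 5 different lines, each the culture of 1 tumour-derived line that the study chose for its low expression of BMP4. The p-value of a difference rests on how unevenly these lines changed over time, and that of a ratio against 0 on the spread between lines. Both take the spread from all 30 arrays. All values are log2 of BMP4 over vehicle, so that 0 stands for no difference from vehicle and 1 for a 2-fold higher level. In such bulk RNA, fewer expressing cells and less RNA per cell cannot be told apart.

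BMP4 is a secreted signalling protein related to transforming growth factor beta. It binds type I and type II receptor kinases that phosphorylate SMAD1, SMAD5 and SMAD9, which move to the nucleus with SMAD4 and activate target genes such as the ID genes, whose products block basic helix-loop-helix factors. Among the targets are also inhibitors of the pathway itself, above all SMAD6 and SMAD7, and signal-induced genes of this kind commonly have short-lived mRNAs, so that a transcript can peak and return within hours.

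On the 10 arrays of 1 h and 3 h, 56.3% to 70% of the probes of a channel were well above background. Of 11 luminal epithelial markers, 10 were well above background in the vehicle channel of all 5 arrays at 3 h. Of 6 basal epithelial markers, KRT14 alone was so on all 5 arrays, and the others were so on some of them. On none of these arrays were 5 of 8 fibroblast markers, 1 of 8 leukocyte markers (PTPRC) and 1 of 6 endothelial markers (TEK). Other members of these lists were so on all 5, namely COL1A1 and THY1 (fibroblast), CD3E, CD68 and CD14 (leukocyte) and VWF (endothelial). The spike-in controls gave log ratios whose slope on the designed ones was 0.588 to 0.727 at 1 h and 0.525 to 0.847 at 3 h, so ratios were compressed. The ZR-75-30 array at 1 h stood apart, with 857 probes at 2-fold or more, against 13 to 208 on the other 1 h arrays. In HCC1419 and MDA-MB-361 both arrays were scanned on the same day, and in the other 3 lines the 1 h array was scanned in an earlier period than the 3 h array.

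Between 1 h and 3 h, limma called 1 of 41000 probes lower (0.00244%) and 0 higher (0%) at an adjusted p under 0.05. The probe belonged to SOCS3. At an unadjusted p under 0.05, 1100 probes were higher (2.68%) and 801 lower (1.95%) at 3 h. The other genes below are therefore given by their values. They are the 10 with the smallest p in each direction and the members with the largest difference in each of a set of gene lists, and those chosen after their values were seen are named as such. Values are those of a gene's brightest probe unless another is named.

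SOCS3, which encodes a feedback inhibitor of cytokine receptor signalling, fell between 1 h and 3 h. The SOCS3 probe (hg18 chr17:73864722-73864781) read 0.34, 0.50, 0.79, 0.80 and 1.07 at 1 h and -0.09, -0.09, 0.15, 0.18 and 0.28 at 3 h, from HCC1419 to ZR-75-30. The highest 3 h value lay below the lowest 1 h value, and every line was lower at 3 h. The difference was -0.61 ± 0.095 (SE, here and below from the limma fit of all 30 arrays; 95% interval -0.81 to -0.42), with a limma adjusted p of 0.04923. The mean ratio was 0.17 at 30 min, 0.70 ± 0.29 (SD, n = 5) at 1 h and 0.09 ± 0.17 at 3 h, and stayed between 0.11 and 0.19 from 6 h to 24 h. The difference was -0.53 in the lines scanned on 1 day and -0.67 in the others. The call rested on all lines and on the processing. The limma adjusted p was 0.05775 to 0.9994 when 1 line was left out and 0.2253 with only the 10 arrays of 1 h and 3 h. It was 0.2637 with scan period as a term, and reached 1 with 1 scaling factor per array in place of loess. A second, dim SOCS3 probe, well above background on at most 3 of 5 arrays, read 0.08 at 1 h and 0.00 at 3 h.

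HES1, a transcriptional repressor best known as a target of Notch, had the largest difference among the genes selected by p in this direction. Its ratio was 1.32, 0.52, 1.18, 0.31 and 0.87 at 1 h (hg18 chr3:195338870-195338929). At 3 h the same lines read 0.01, -0.15, -0.27, -0.06 and 0.11. On this probe no line remained above vehicle by more than 0.11, and the groups did not overlap. The difference was -0.91 ± 0.15 (SE; 95% interval -1.23 to -0.60), with a limma adjusted p of 0.07315, which is not a call. The means of both other HES1 probes were also lower at 3 h, by values of -0.66 and -0.58. On the first of these, ZR-75-30 did not fall, with 0.34 at 3 h and a difference of 0.02. The HES1 difference was -1.38 in the 2 lines scanned on 1 day and -0.60 in the other 3. It passed the threshold without SK-BR-3 (limma adjusted p 0.01318) and with scan period as a term (-1.09, adjusted p 0.02056). It did not pass when any other line was left out (adjusted p 0.28 to 0.9994) or with only the 10 arrays of 1 h and 3 h (adjusted p 0.8808). At 6 h the HES1 mean was 0.29, which was 0.37 above 3 h at an unadjusted limma p of 0.02348.

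The 250 bases before the start of both genes are shown because both were high at 1 h and near vehicle at 3 h. The sequences are from RefSeq on GRCh38.p14, 5′ to 3′ on the strand of the gene, at chr3:194135898-194136147 (plus strand) for HES1 and at chr17:78360926-78361175 (minus strand, the outermost of 2 listed starts) for SOCS3. Capitals in HES1 mark CACNAG, the N box bound by HES proteins, and GTGGGAA, the core bound by the Notch effector RBPJ. Capitals in SOCS3 mark GGCGCC, the GC-rich motif bound by SMAD1 and SMAD5.
HES1: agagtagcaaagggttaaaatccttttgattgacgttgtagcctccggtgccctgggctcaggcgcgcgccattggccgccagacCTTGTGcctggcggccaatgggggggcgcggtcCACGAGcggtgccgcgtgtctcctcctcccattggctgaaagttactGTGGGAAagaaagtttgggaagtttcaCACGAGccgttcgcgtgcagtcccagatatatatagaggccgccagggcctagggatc
SOCS3: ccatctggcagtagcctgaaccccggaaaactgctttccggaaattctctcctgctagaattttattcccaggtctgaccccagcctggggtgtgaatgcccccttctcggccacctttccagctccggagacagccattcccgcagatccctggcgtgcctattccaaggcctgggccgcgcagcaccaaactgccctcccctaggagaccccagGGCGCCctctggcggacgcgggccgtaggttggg
On either strand, the HES1 stretch held CACNAG at 3 places and GTGGGAA once, 78 bases before the start. The SOCS3 stretch held GGCGCC once, 28 bases before the start. Of 35116 promoter stretches of the same length, 32% held CACNAG, 5.43% GTGGGAA and 16.4% GGCGCC. A match of letters is a description and no evidence of binding.

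DLL1, which encodes a Notch ligand, was among the 10 genes of smallest p as well. It read 0.49, 0.17, 0.51, 0.17 and 0.39 at 1 h and 0.08, -0.16, 0.10, 0.01 and 0.31 at 3 h. Each line was lower at 3 h, though the groups overlapped through ZR-75-30. The difference was -0.28 ± 0.08 (SE), with a limma adjusted p of 0.9893, whereas its 1 h ratio had been called higher than 0 (adjusted p 0.04121).

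IER5L, a relative of the immediate early gene IER5, read 0.35, -0.04, 0.76, 0.62 and 0.68 at 1 h and -0.16, -0.17, 0.52, -0.15 and -0.11 at 3 h. MDA-MB-361 kept most of its level and stood apart from the 4 other lines at 3 h. The IER5L difference of -0.48 was not called (limma adjusted p 0.9893).

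RPS10, which encodes a protein of the small ribosomal subunit, was also listed here, through 1 probe. This probe (hg18 chr6:34493215-34493274) read 1.01, 0.84, 0.40, 0.75 and 0.76 at 1 h and 0.52, 0.30, 0.07, 0.21 and 0.14 at 3 h, a difference of -0.51 (limma adjusted p 0.8249). The 6 other RPS10 probes differed by -0.13 to 0.08, so the value is that of 1 probe and not of the gene.

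CYP1A1, which encodes a xenobiotic-metabolising cytochrome induced through the aryl hydrocarbon receptor, differed in kind. It lay near vehicle at 1 h, at -0.16, -0.06, 0.18, -0.27 and 0.01, and below vehicle in every line at 3 h, at -0.71, -0.53, -0.44, -0.46 and -1.11. The 2 sets of values did not overlap. The CYP1A1 level at 3 h was called lower than vehicle (limma adjusted p 0.007154), but the difference of -0.59 was not (adjusted p 0.9893), except without SK-BR-3 (adjusted p 0.01477). Its mean was -0.49 at 6 h, -0.07 at 12 h and 0.03 at 24 h.

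**Figure D1:**
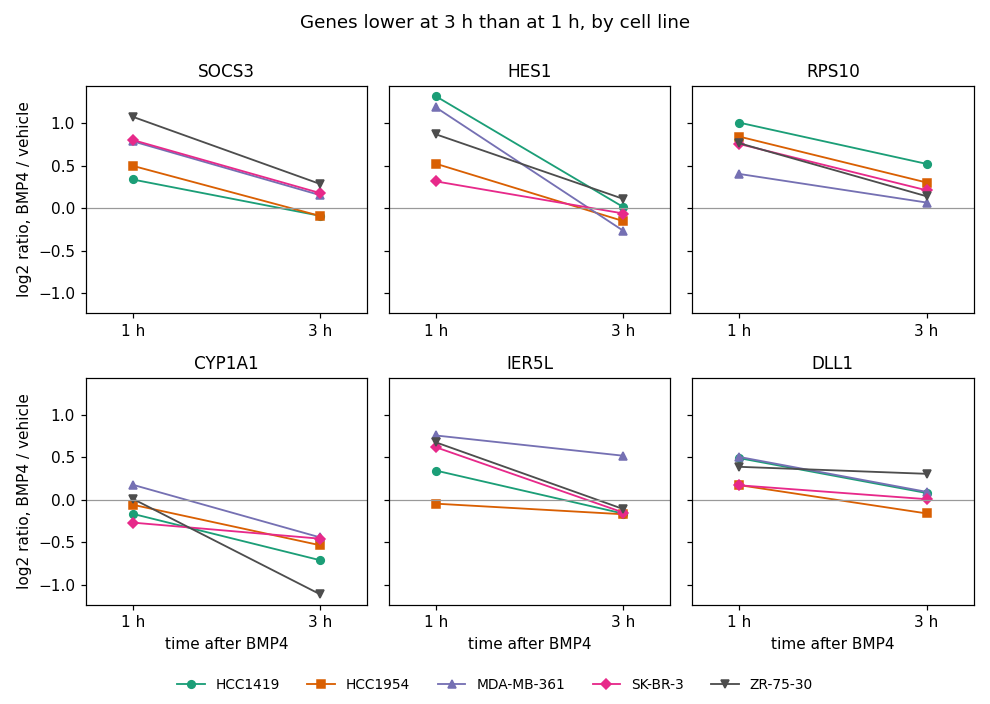
Log2 ratio of BMP4 over vehicle at 1 h and 3 h for SOCS3, HES1, RPS10 (1 probe), CYP1A1, IER5L and DLL1, with 1 line of the plot for each cell line. The mean of SOCS3 went from 0.70 to 0.09 and that of HES1 from 0.84 to -0.07, while CYP1A1 started near 0 and ended below it.

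PPP1R1A, ERC2, STXBP5L and LOC129530 (LYG1) completed the 10, with differences of -0.26, -0.37, -0.20 and -0.23 and no call. In a given channel and time these were dim, well above background on at most 3 of 5 arrays for the first 3 genes and 4 for LOC129530, and second probes of PPP1R1A and ERC2 differed by -0.01 and 0.04. Without SK-BR-3 the PPP1R1A difference was -0.17, and without ZR-75-30 that of ERC2 was -0.22. In the series matrix the PPP1R1A, STXBP5L and LOC129530 differences were -0.94, -0.50 and -0.75. All 10 were lower at 3 h in each of the 5 lines, against 2.94% of the probes with a value on all 10 arrays, and in 5 of 10 the groups did not overlap, against 0.224%. They were chosen for a small p in this contrast, so these counts describe the choice. At 1 h, 4 of the 10 had been called higher than 0, against 0.612% of all probes. At 3 h 1 was called, CYP1A1, on the lower side, against 0.0585%. Choosing a low difference favours a high 1 h and a low 3 h value, so these calls describe the choice as well.

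Probes of BCOR and OVOL1, named after their values were seen, differed as much. BCOR encodes a corepressor of BCL6, and the probe for its transcript variant 2 (hg18 chrX:39816216-39816275) read 1.23, 1.54, 1.32, 1.29 and 0.50 at 1 h and 0.27, 0.18, 0.13, 0.28 and -0.04 at 3 h. Its difference of -1.01 ± 0.18 (SE) had a limma adjusted p of 0.117. The brightest BCOR probe, for variant 1 (hg18 chrX:39796245-39796304), moved the other way, from a mean of 0.24 at 1 h to 0.56 at 3 h, and was called higher than vehicle at 3 h (limma adjusted p 0.01338). A dimmer BCOR probe had means of -0.07 at 1 h and 0.14 at 3 h. OVOL1, an epithelial transcription factor, had mean ratios of 0.98 and 0.56 on its 2 probes at 1 h and of 0.53 and 0.07 at 3 h. The difference on the second, dimmer OVOL1 probe was -0.50 (limma adjusted p 0.117). This probe and the BCOR variant 2 probe had unadjusted limma p of 9.241e-06 and 1.142e-05. Those lie below the p of every gene listed by p in this direction except SOCS3 and HES1. Neither is the brightest probe of its gene, so the choice by p passed them over.

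Among the genes selected by p in the other direction, MAP3K5 had the largest difference. It encodes ASK1, a stress-activated kinase upstream of JNK and p38. MAP3K5 (hg18 chr6:136920042-136920101) read 0.17, 0.24, 0.22, 0.05 and -0.30 at 1 h. At 3 h it read 1.34, 0.42, 1.79, 0.85 and 1.00. All lines were higher at 3 h and the groups did not overlap, but HCC1954 moved by only 0.18 and MDA-MB-361 by 1.58. The difference was 1.00 ± 0.21 (SE; 95% interval 0.58 to 1.43), not called at a limma adjusted p of 0.4078, while the 3 h ratio itself was called higher than 0 (adjusted p 0.001865). MAP3K5 held its level, at 1.13, 1.01 and 0.96 at 6, 12 and 24 h.

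SMAD6, the inhibitory SMAD that competes for the BMP receptors and SMAD1, was near vehicle at 1 h, at -0.03, -0.02, 0.34, -0.25 and 0.41. At 3 h SMAD6 read 0.74, 0.45, 1.06, 0.60 and 0.59, so that every 3 h value lay above every 1 h value. The difference was 0.60 ± 0.14 (SE; 95% interval 0.31 to 0.88; limma adjusted p 0.7629), and the 3 h ratio was called higher than 0 (adjusted p 0.04179). SMAD7, the other inhibitory SMAD, had a mean difference of the opposite sign, although the genes were not tested against each other. SMAD7 read 1.15, 0.68, 0.79, 0.60 and 0.04 at 1 h and 0.57, 0.36, 0.39, 0.09 and 0.22 at 3 h. It was lower in every line but ZR-75-30, where both genes rose by 0.18. The SMAD7 difference was -0.33 (95% interval -0.56 to -0.09; unadjusted limma p 0.008388, adjusted p 0.9893). Its ratio was called higher than 0 at 1 h (adjusted p 0.0006201) and not at 3 h (adjusted p 0.1819).

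ID4 alone of the ID genes was not called higher than 0 at 1 h. It read 1.30, 0.15, 0.75, 0.17 and 0.09 at 1 h, high in HCC1419 and MDA-MB-361 alone, and 1.60, 0.88, 1.28, 1.21 and 0.89 at 3 h, when all 5 lines were high (hg18 chr6:19947489-19947548). The groups overlapped through HCC1419. The ID4 difference was 0.68 ± 0.17 (SE; 95% interval 0.32 to 1.04; limma adjusted p 0.9893), and its 3 h ratio was called (adjusted p 0.0005074) where its 1 h ratio was not (adjusted p 0.1753). This difference was 0.42 in the lines scanned on 1 day and 0.86 in the others, and 0.58 with scan period as a term. The ID genes were not tested against each other.

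The corresponding 250 bases of SMAD6 and ID4 are shown because both were called higher than vehicle at 3 h and not at 1 h. They are from RefSeq on GRCh38.p14 at chr15:66701986-66702235 (plus strand) and chr6:19837120-19837369 (plus strand). Capitals mark GTCTAGAC, the palindrome bound by SMAD3 and SMAD4.
SMAD6: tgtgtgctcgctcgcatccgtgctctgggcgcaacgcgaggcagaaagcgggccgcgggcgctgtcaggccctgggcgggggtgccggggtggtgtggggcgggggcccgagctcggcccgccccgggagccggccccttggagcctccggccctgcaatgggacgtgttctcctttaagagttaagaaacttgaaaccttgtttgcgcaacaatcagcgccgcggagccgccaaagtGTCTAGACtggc
ID4: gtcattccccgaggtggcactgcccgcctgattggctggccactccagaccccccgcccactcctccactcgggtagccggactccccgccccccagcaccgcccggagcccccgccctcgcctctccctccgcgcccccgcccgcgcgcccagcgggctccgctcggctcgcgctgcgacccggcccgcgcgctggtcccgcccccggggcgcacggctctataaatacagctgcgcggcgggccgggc
The SMAD6 stretch held GTCTAGAC, 4 bases before the start, as did 0.182% of the 35116 stretches. It held none of the other strings searched, GGCGCC among them, and a match of letters is no evidence of binding. None of the 4 letter strings searched was in the ID4 window, and nothing about any factor follows from that.

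SKIL, which encodes the SMAD corepressor SnoN, read 0.33, 0.51, -0.33, -0.20 and -0.41 at 1 h and 0.80, 0.61, 0.74, 0.21 and 0.32 at 3 h. All lines were higher at 3 h, with overlap, and the difference of 0.56 had an unadjusted limma p of 0.0009626. SAMD11, a sterile alpha motif protein, read -0.13, 0.05, 0.36, 0.05 and 0.45 at 1 h and 0.87, 0.71, 0.92, 0.67 and 0.52 at 3 h, with no overlap. The SAMD11 difference was 0.58, and its 3 h ratio was called (limma adjusted p 0.004224).

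SH3RF1, which encodes the JNK scaffold POSH, read 0.07, 0.02, -0.34, -0.11 and -0.29 at 1 h and 0.63, 0.50, 0.41, 0.48 and 0.57 at 3 h. The 3 h values were even across lines, with an SD of 0.08, and lay above all 1 h values. The difference was 0.65 on this probe and 0.34 on a second one, both without a call.

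RBM3, a cold-inducible RNA-binding protein, was below vehicle at 1 h (-0.01, -0.28, -0.47, -0.29 and -0.29) and slightly above it at 3 h (0.20, 0.14, 0.04, 0.24 and 0.17), a difference of 0.43 (limma adjusted p 0.4092). Neither its 1 h nor its 3 h level was called against 0 (adjusted p 0.1188 and 0.5234). The remaining genes selected by p were TCAF1 (listed as KIAA0738), LNX2, PAPOLG, CXXC4 and AGO1 (listed as EIF2C1), with differences of 0.51, 0.51, 0.34, 0.29 and 0.28 on their brightest probes and of 0.17, 0.14, 0.15, 0.11 and -0.08 on second ones.

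**Figure D2:**
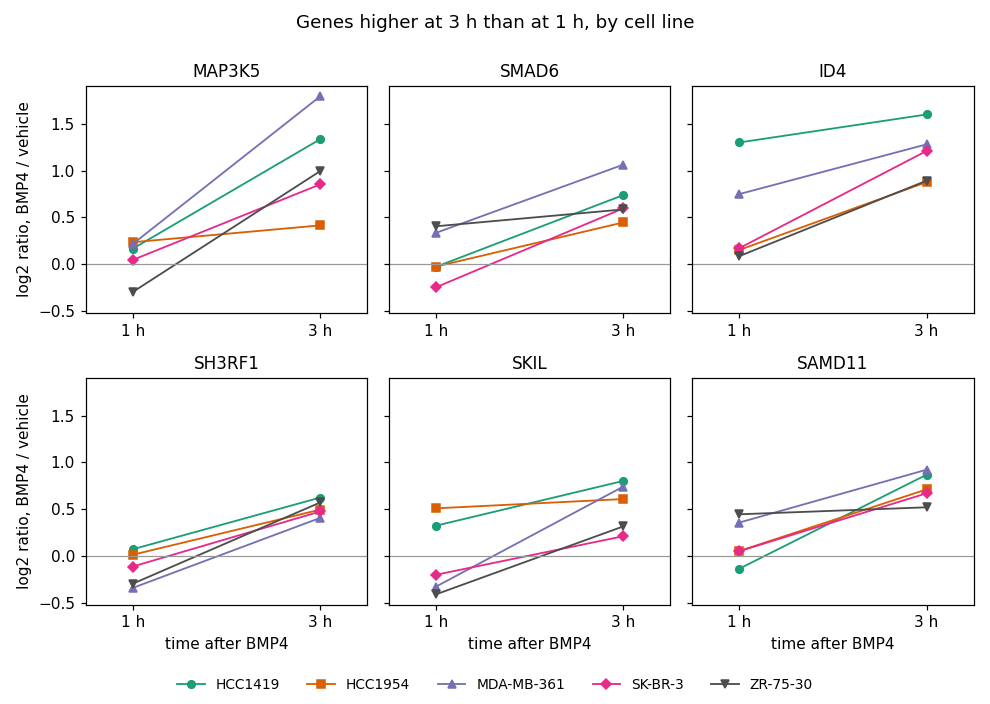
Log2 ratio of BMP4 over vehicle at 1 h and 3 h for MAP3K5, SMAD6, ID4, SH3RF1, SKIL and SAMD11, with 1 line of the plot for each cell line. All 5 lines were higher at 3 h in each of the 6 genes, and MAP3K5 moved least in HCC1954 (0.18).

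Of the 10 genes with the smallest p in this direction, 9 were higher at 3 h in each of the 5 lines, against 3.81% of probes, and 6 had no overlap of the groups, against 0.283%. These counts again describe the choice. At 3 h, 3 of the 10 were called higher than 0 by limma, namely MAP3K5, SMAD6 and ID4, against 0.29% of all probes. At 1 h 0 were, against 0.612%. Choosing a high difference favours a high 3 h and a low 1 h value, so these calls describe the choice too.

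Other genes were called higher than vehicle at both times. ID1 read 1.81, 1.30, 1.85, 0.65 and 1.06 at 1 h and 1.88, 1.76, 0.89, 1.36 and 0.98 at 3 h (hg18 chr20:29657819-29657878). It went down in MDA-MB-361 and up in HCC1954 and SK-BR-3, and the mean difference was 0.04 (95% interval -0.31 to 0.39). ID1 was called higher than 0 at both times (limma adjusted p 3.456e-05 at 1 h and 1.938e-05 at 3 h). Its difference was -0.44 in the lines scanned on 1 day and 0.36 in the others, and its sign turned with 1 scaling factor per array (-0.17) and with scan period as a term (-0.0627).

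ID2 read 1.92, 1.06, 1.35, 0.78 and 0.79 at 1 h and 1.59, 2.25, 1.73, 1.34 and 1.59 at 3 h. It was higher at 3 h in all lines but HCC1419, with a difference of 0.52 (95% interval 0.02 to 1.02; unadjusted limma p 0.04098). A second ID2 probe gave 0.46 (unadjusted p 0.002924), and both probes were at 2-fold or more in all 5 lines at 3 h. The ID2 difference was 0.02 in the lines scanned on 1 day and 0.85 in the others, and with scan period as a term it was 0.29 (unadjusted limma p 0.2756).

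ID3 read 1.12, 0.68, 1.08, 0.33 and 0.99 at 1 h and 1.13, 1.43, 0.97, 0.56 and 0.86 at 3 h, a difference of 0.15 (95% interval -0.13 to 0.43). The gain lay in HCC1954 and SK-BR-3.

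JUNB, JUND and HEY1, chosen after their values were seen, were likewise called higher than vehicle at both times by limma. JUNB, an AP-1 subunit, read 1.52, 0.66, 1.30, 0.46 and 0.94 at 1 h and 1.13, 0.66, 0.75, 0.97 and 0.57 at 3 h (difference -0.16, 95% interval -0.45 to 0.13), though a second JUNB probe read only 0.16 and 0.25. The JUNB difference rested on the lines, at -0.33 without SK-BR-3 (unadjusted limma p 0.01002) and -0.06 without MDA-MB-361. JUND, another AP-1 subunit, had a mean of 0.46 at both times. HEY1, a repressor of the HES family, read 1.27, 0.24, 1.26, 0.85 and 1.58 at 1 h and 1.11, 0.37, 1.12, 1.02 and 0.71 at 3 h (difference -0.17, 95% interval -0.55 to 0.20). The 3 h mean of HEY1 was 0.87 where that of HES1, of the same family, was -0.07, although the difference between the genes was not tested.

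**Figure D3:**
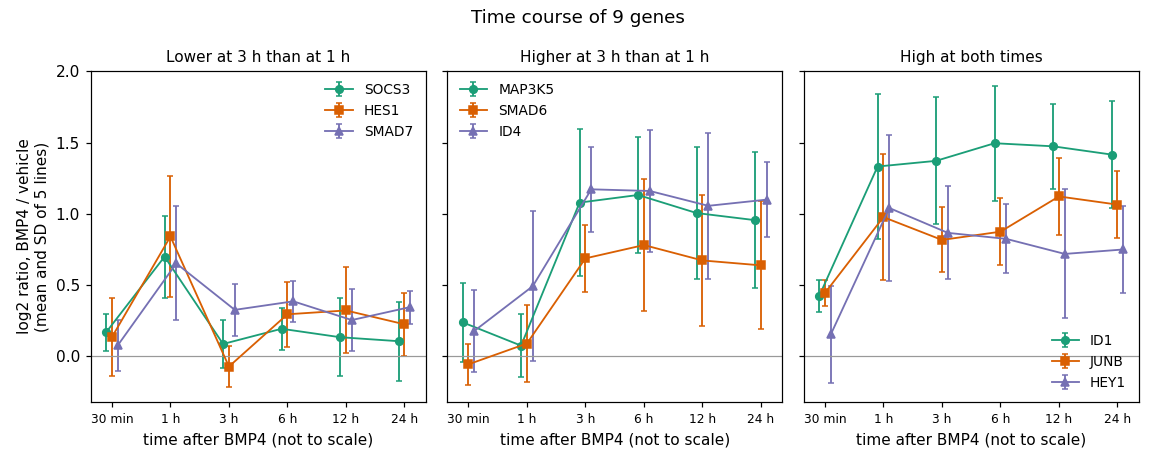
Mean log2 ratio of BMP4 over vehicle against time after addition (30 min to 24 h) for 3 genes lower at 3 h than at 1 h (SOCS3, HES1, SMAD7), 3 higher at 3 h (MAP3K5, SMAD6, ID4) and 3 high at both (ID1, JUNB, HEY1), with bars for the SD over 5 lines. SOCS3 and HES1 peaked at 1 h, whereas MAP3K5 went from 0.07 at 1 h to 1.08 at 3 h and stayed near 1.

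Against vehicle, 251 probes were called higher (0.612%) and 148 lower (0.361%) at 1 h, and 119 higher (0.29%) and 24 lower (0.0585%) at 3 h. The tests against 0 share arrays with the difference and contain any dye bias, since dyes were not swapped. They also treat the arrays of a line as independent. Higher at both times were 64 probes, which are 25.5% of those higher at 1 h and 53.8% of those higher at 3 h. Their median ratio was 0.50 at 1 h and 0.49 at 3 h, and 32 were lower and 32 higher at 3 h.

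The 187 probes called higher at 1 h alone had a median of 0.31 at 1 h and 0.17 at 3 h, and 183 of them were still above 0 at 3 h. The 55 called higher at 3 h alone had a median of 0.18 at 1 h and 0.34 at 3 h, and 54 were above 0 already at 1 h. Selection on a high value at one time favours a lower value at the other, so these medians describe the classes only. Of the 140 probes called lower at 1 h alone, 139 were less low at 3 h. Only the SOCS3 probe was called higher at 1 h, called lower at 3 h than at 1 h and not called at 3 h. By the reverse definition, 0 probes were first higher at 3 h, under every alternative tried as well, beside the 1100 probes higher at an unadjusted limma p under 0.05.

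**Figure D4:**
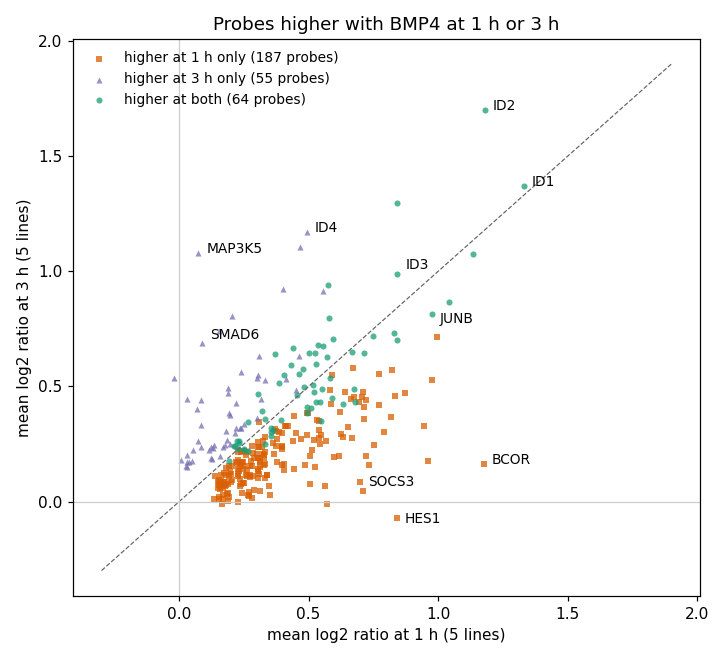
Mean log2 ratio at 3 h against that at 1 h, over 5 lines, for the probes called higher than vehicle at 1 h only (187), at 3 h only (55) or at both times (64). The diagonal marks equal values at both times, and HES1, SOCS3 and the BCOR variant 2 probe lie far below it, MAP3K5, SMAD6 and ID4 above it.

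Among the pathway's genes, no list had a called difference, so members are given by unadjusted p under 0.05, which 2.6% of 17843 genes passed on the higher side and 2.07% on the lower side. Of 4 ID genes, 2 passed higher (ID2, ID4) and 0 lower, and all 4 were called higher than vehicle at 3 h, against 0.392% of genes higher and 0.118% lower, and 3 at 1 h, against 0.661%. The median of the 4 was 1.01 at 1 h and 1.27 at 3 h, beside -0.007 and -0.005 over all genes. Of 17 SMAD feedback genes, 2 passed higher (SMAD6, SKIL) and 1 lower (SMAD7), with a list median of 0.11 at 1 h and 0.18 at 3 h.

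Of 11 BMP receptors and receptor SMADs, 2 passed higher and 0 lower. BMPR1A, a type I BMP receptor, had mean ratios of -0.14 and 0.26 (difference 0.40), and SMAD9, a receptor SMAD, -0.03 and 0.39 (difference 0.42). The SMAD9 mean at 3 h was carried by MDA-MB-361, at 1.16 against -0.07 to 0.38 in the other lines. SMAD1 (chosen after its values were seen) was called higher than vehicle at 3 h with a mean of 0.22 (limma adjusted p 0.04179).

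Of 28 BMP target transcription factors, 4 passed higher and 2 lower. TBX3, a T-box repressor, was higher at 3 h in all 5 lines, with -0.01, 0.01, -0.13, -0.22 and -0.28 at 1 h and 0.30, 0.21, 0.36, 0.17 and 0.21 at 3 h. ATOH8, a basic helix-loop-helix factor, had means of 0.13 and 0.50. On the lower side were HES1 and SNAI1, a repressor of E-cadherin, whose mean of 0.36 at 1 h rested on SK-BR-3 at 1.32. The distal-less homeobox gene DLX2, named after its values were seen, had means of 0.56 and 0.92 on its brightest probe.

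The other signal-induced lists moved little. Of 28 immediate early genes, 1 passed on each side, with a median of 0.03 at 1 h and 0.01 at 3 h. IER2, the one on the lower side, had means of 0.37 and -0.05 on its brightest probe and of 0.60 and 0.19 on the other. Of 10 MAP kinase phosphatases, 13 CDK inhibitors and cyclins and 22 proliferation genes, 0 passed on either side. CDKN1A, which encodes the CDK inhibitor p21, was above vehicle in all lines at both times, with means of 0.36 and 0.57, but was called at neither (limma adjusted p 0.357 and 0.208). Of 16 SMAD2/3 target genes of the TGF-beta type, 2 passed higher, LEFTY1 (difference 0.17) and PMEPA1, listed as TMEPAI (0.35).

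Of 16 genes that the study ranked high, which it chose on these samples, 5 passed higher and 1 lower. GPR30 (GPER1), a membrane oestrogen receptor, was among them, with means of 0.30 at 1 h, 0.79 at 3 h and 1.33 at 6 h. It was at 2-fold or more at 3 h in HCC1419, MDA-MB-361 and SK-BR-3, and at 0.14 and 0.23 in HCC1954 and ZR-75-30. Of 17 stress response genes, 0 passed higher and 1 lower, GADD45B, a growth arrest gene induced by TGF-beta, with means of 0.49 and 0.09. Of 15 steroid and hypoxia genes, 1 passed lower, PER1 (difference -0.30).

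Of the 11 luminal markers, 2 passed lower, GRB7 with a difference of -0.40 and SPDEF with -0.30. Of the 6 basal, 8 fibroblast, 8 leukocyte and 6 endothelial markers, 0 passed on either side.

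**Figure D5:**
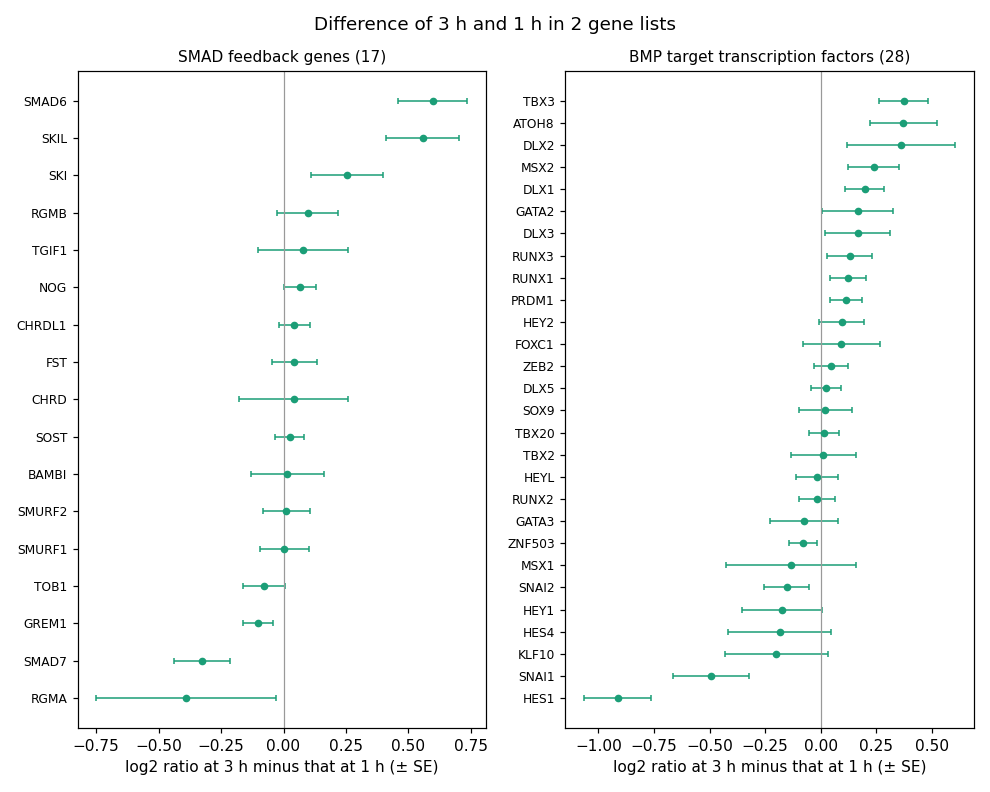
Difference of 3 h and 1 h (log2, mean with its SE over 5 lines) for the 17 SMAD feedback genes and the 28 BMP target transcription factors, ordered by value. SMAD6 (0.60) and SKIL (0.56) stand at one end of the first list, and HES1 (-0.91) and SNAI1 (-0.49) at the other end of the second.

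Probes at 2-fold or more at 3 h numbered 286, 14, 29, 24 and 102 from HCC1419 to ZR-75-30. At 1 h the lines had 187, 13, 28, 208 and 857. The mean was 91 at 3 h and 258.6 at 1 h, lower in 2 of 5 lines, with an exact two-sided paired permutation p of 0.5, where 5 pairs cannot go below 0.063. These counts depend on the processing, with a mean at 3 h of 1022.2 in the series matrix and 1012.8 in the software's log ratio, and the 9 probes below were found at the reported setting. In HCC1419, 259 of the 286 were down, whereas in the next 3 lines almost all were up (13, 26 and 23).

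At 2-fold or more in at least 3 lines at 3 h were 9 probes, all of them up and named by this count. They were both ID2 probes (5 lines), the transcript BC041913 (4 lines) and DLX2, GIPR, GPR30, HEY1, ID1 and ID4 (3 lines each). BC041913 (hg18 chr3:171597094-171597153), which lies beside the SKIL probe at chr3:171592788-171592847, had means of 0.46 at 1 h and 1.11 at 3 h. GIPR, which encodes the incretin receptor for GIP, read 0.95 at 30 min, 1.13 at 1 h and 1.08 at 3 h, while its other probe read 0.06 and 0.13. A constant dye bias of that GIPR probe and a response cannot be told apart.

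Across all probes, the 5 lines shared little of the change from 1 h to 3 h. The correlation of the difference between 2 lines lay between -0.277 and 0.325, and probes are not independent replicates. A group of 664 probes that follow the NEUROG3 probe across the arrays (r of 0.8 or more) ranged widely between arrays. Their mean was -0.671, -0.307, 0.346, 0.51 and 0.596 at 1 h and -0.909, 0.026, 0.148, -0.04 and 0.328 at 3 h. With that mean as a covariate, 3 probes were called lower at 3 h than at 1 h and 0 higher.

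The 20 arrays outside this difference show where the same genes stood before and after. In the mean of 6, 12 and 24 h minus 30 min, limma called 46 probes higher (0.112%) and 2 lower (0.00488%). Of the 10 genes with the smallest p on the higher side, 8 were above 30 min at the later times and 2 were called, SMAD6 (0.75, adjusted p 0.002066) and ID4 (0.93, adjusted p 0.00242). MAP3K5 came to 0.79 (adjusted p 0.06228). Of the 10 on the lower side, 6 were above 30 min and 4 below, and 0 were called. Both sets were chosen by p in a fit whose spread includes these 20 arrays, so a small spread favours a call here too. The counts above 30 min have no share over all probes beside them and are descriptions. SOCS3 (-0.02) and HES1 (0.15) were back near their 30 min levels.

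SAMD11 (1.08, limma adjusted p 0.0002065) and GPR30 (1.33, adjusted p 0.0002264), from the list of the study, were called as well in those later arrays. Between 3 h and 6 h, 0 probes were called (0%), beside 314 higher (0.766%) and 508 lower (1.24%) at an unadjusted p under 0.05. Against 30 min in place of 1 h, 8 probes were called higher at 3 h (0.0195%) and 0 lower, those of ID1, ID2 (both probes), ID3, ID4, SAMD11, BMF and the transcript THC2701797. That contrast uses the same 3 h arrays, so it is no separate evidence. BMF, a BH3-only promoter of cell death named here by its call, had means of -0.14 at 30 min, 0.30 at 1 h and 0.55 at 3 h.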

How the data were processed

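Two-colour Agilent arrays compared BMP4-treated (Cy5) with vehicle-treated (Cy3) cells, without dye swap. Per the file headers, the deposited files were made with Feature Extraction 9.5.1.1 (hg18, NCBI 36), where the study's methods name another version. The deposited mean and background signals are intensity values without normalization, and the processed signals are intensity values after the software's background subtraction and dye normalization. The deposited log10 ratio and its p-value come from the software, and the p-value was not used. In the authors' series matrix each probe has a log2 ratio, centred on the array's median, in the direction of BMP4 over vehicle. The study's methods state a linear normalization without further detail.

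All 45015 spots were corrected by normexp (offset 50), 1639 control spots had weight 0 in the loess fit, outlier spots were set to missing, and the other spots were averaged to 41000 probes with limma 3.58.1 in R 4.3.3. At 1 h and 3 h, 489 probe values were missing. Precision is limited by the 5 arrays per time point. Gene names are those of the array, updated through RefSeq for 27745 probes.

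The difference of 3 h and 1 h was a contrast in a limma fit of all 30 arrays with time point and cell line, since the lines pair the arrays. Deviations of the 2 arrays of a line from their group means correlated at 0.0659 to 0.717 across probes. In HCC1954 and SK-BR-3 the correlation with another line was higher (0.316 and 0.334, against 0.096 and 0.0659), so the pairing comes from the labels and not from this check. Ratios were tested against 0 with time point alone. That fit treats the arrays of a line as independent, so its degrees of freedom are too many where they correlate. P-values were adjusted by Benjamini-Hochberg over all probes and called under 0.05. The script was tested on simulated data. Named were the called genes, filled to 10 per direction by smallest p among probes well above background on 3 or more of 5 arrays, the 4 largest differences in each list, and ID1 to ID4, on the brightest probe. The genes, lists and tests were chosen with earlier results of these data known. Alternatives changed the background correction, normalization, filters, weights, blocks and lines.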

Additional observations from a re-analysis of the deposited data

Results flagged for a closer look

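In 5 of 74 groups of 5 values tested with Dixon's criterion (critical value 0.71), 1 line stood apart, where chance gives about 1 in 20. The LNX2 difference of 3 h and 1 h was 1.15 in ZR-75-30, above the 4 other lines. The PPP1R1A difference was -0.64 in SK-BR-3, below the others. The IER5L ratio at 3 h was 0.52 in MDA-MB-361, where the other lines lay below 0. The OVOL1 difference on its dimmer probe was -0.0378 in SK-BR-3, where the 4 other lines were lower at 3 h. At 1 h, 857 probes were at 2-fold or more in ZR-75-30.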

How the results depend on the processing

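The count of probes lower at 3 h than at 1 h, 1 as reported, was 0 with only the 10 arrays, without the cell line as a replicate block, with the series matrix, the software's log ratio, 1 factor per array, no background subtraction, trend and robust moderation, and slide as a random block. It was 2 without dim probes and with scan period as a term, 3 with the NEUROG3 followers as a covariate, 4 with array weights, and 0 to 3 when 1 line was left out. The count that was also higher at 1 h and decayed was the same under these settings, except 0 to 2 when 1 line was left out. The count higher at 3 h was 0 in all of them. SOCS3 kept its direction in 19 of 19 alternatives (-0.68 to -0.51) and its call in 5, and HES1 kept its direction (-1.09 to -0.78) and was called in 5. Without the block the SOCS3 difference stayed at -0.61 with an adjusted p of 0.8604.

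The 119 probes higher than vehicle at 3 h became 61 with only the 10 arrays, 191 with the software's log ratio, 8 with 1 factor per array, 660 with array weights, 55 with trend and robust moderation, 243 with the covariate and 36 to 78 when 1 line was left out (36 without HCC1419). The higher share of calls at 3 h, 83.2%, was 100% with 1 factor (8 probes against 0), 72.3% with the covariate and 61.4% with array weights. The 46 probes higher in the later arrays became 8 without the block, 10 with 1 factor, 149 with array weights and 11 (without MDA-MB-361) to 42 when 1 line was left out. Of the 20 genes named by p, 11 kept a p under 0.05 and their direction with 1 factor per array. The mean of 91 probes at 2-fold per array was 1022.2 in the series matrix and 1012.8 in the software's log ratio, and 42.25 to 110.25 when 1 line was left out. The causes were not tested.

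Over 33 probes and 19 alternatives, 592 of 625 values kept direction and side of the threshold, 14 lost and 13 gained a call, and 6 reversed. The difference of ID1 was -0.17 with 1 factor, -0.0627 with scan period and -0.13 to 0.29 when 1 line was left out. That of ID3 was -0.0047 to 0.22, that of JUNB -0.33 to -0.06 and that of HEY1 -0.26 to 1e-04 when 1 line was left out.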
